A study of Mus musculus with 15 samples.

Results

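The genes described here are 7 aquaporins, Aqp1, Aqp2, Aqp3, Aqp4, Aqp6, Aqp7 and Aqp11, and Avpr2, the kidney's V2 receptor for vasopressin, in mouse kidneys with a tied ureter. They were found by symbol in a table of 24421 gene symbols, where all 8 had a row, and all 8 passed the filter on low counts in each comparison. UUO stands for unilateral ureteral obstruction, an operation that closes the ureter on the operated side, so that urine backs up, the tubules are injured and scar tissue forms between them. All mice were wild type (WT), and whole kidney was taken at day 14. The groups were UUO on a Si-based diet (UUO_Si, n = 6), UUO on the normal diet (UUO, n = 6) and a sham operation on the normal diet (sham, n = 3). The sources used here do not give the composition of the diet or the strain, sex and age of the mice, and a sham group on the Si-based diet was not analysed here. The labels do not say whether replicates were separate animals, so p values measure the spread between these samples.

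Total RNA was read with a stranded kit for small inputs. Library totals were 7754724 to 11465936 counts in UUO_Si, 11151023 to 15422613 in UUO and 5526642 to 8308121 in sham. A level in CPM is the number of a gene's counts for every 1000000 of the scaled library total. The label of kidney held for its defining markers, with the proximal receptor gene Lrp2 at 7037 ± 384 CPM in sham (SD, n = 3). In 4 libraries (UUO_Si replicate 6, UUO replicates 5 and 6, sham replicate 3), 834 to 1287 of 1463 olfactory and vomeronasal receptor genes had counts, against 102 to 169 in the other 11 libraries. These are called the receptor-gene libraries here, and log2 fold changes that move by over 1.5 times without them (those of Aqp1, Aqp4 and Aqp11 between the diets) are given with and without them. UUO replicates 5 and 6 and UUO_Si replicate 6 also carried sample codes of another series than the rest of their group (the sources used here do not say what the codes mark).

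Aquaporins are membrane pores that let water cross cell layers. Aqp1 lines the proximal tubule, where most filtered water is taken back, the thin descending limb and the descending vasa recta. In the principal cells of the collecting duct, vasopressin binds Avpr2, cAMP rises, protein kinase A is activated, and vesicles that carry Aqp2 fuse with the urinary face of the cell, while the Aqp2 gene is also transcribed more. Water that enters through Aqp2 leaves on the blood side through Aqp3, which also passes glycerol, and Aqp4, which in mice is found in the straight proximal tubule too. Aqp6 sits in vesicles of acid-secreting intercalated cells and conducts anions. Aqp7 is a glycerol channel of the straight proximal tubule, and Aqp11 lies in the endoplasmic reticulum of proximal cells. Mice without Aqp11 develop cystic kidneys.

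Aqp2, Aqp3 and Avpr2 are placed here with principal cells, though urothelium also carries Aqp3. Aqp6, on the same chromosome as Aqp2, is placed with intercalated cells. Levels in whole kidney are not levels within a cell type. The levels of these 4 relative to each other are compared below, although no ratio passed after adjustment with the main settings. The 250 bases before the RefSeq start site of each are shown because of that comparison. Aqp2 (chr15:99579055-99584547) and Aqp6 (chr15:99601400-99605477) both lie on the plus strand in GRCm38, the build of the annotation used here, and are protein-coding genes like all 8. Aqp3 (chr4:41092722-41098183, minus strand) lies on the same chromosome and strand as Aqp7 (chr4:41033074-41048139, minus strand). Avpr2 is at chrX:73892102-73895502 on the plus strand. Of the genes without a sequence here, Aqp1 is at chr6:55336432-55348555 (plus) and Aqp11 at chr7:97724006-97738289 (minus). The sequences are RefSeq promoter windows of GRCm38.p6, 5′ to 3′ on the strand of the gene, and capitals mark the motif matches described after them.
Aqp2 (chr15:99578806-99579055, plus strand): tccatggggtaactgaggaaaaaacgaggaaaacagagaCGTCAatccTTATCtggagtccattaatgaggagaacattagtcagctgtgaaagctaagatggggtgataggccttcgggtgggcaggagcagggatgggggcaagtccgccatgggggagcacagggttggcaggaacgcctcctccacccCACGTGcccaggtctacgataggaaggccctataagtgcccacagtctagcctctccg
Aqp3 (chr4:41098184-41098433, minus strand): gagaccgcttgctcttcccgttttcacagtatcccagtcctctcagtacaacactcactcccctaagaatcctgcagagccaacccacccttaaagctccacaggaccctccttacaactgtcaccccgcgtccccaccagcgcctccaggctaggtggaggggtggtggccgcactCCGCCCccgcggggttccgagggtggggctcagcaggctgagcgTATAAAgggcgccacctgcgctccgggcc
Aqp6 (chr15:99600950-99601199, plus strand): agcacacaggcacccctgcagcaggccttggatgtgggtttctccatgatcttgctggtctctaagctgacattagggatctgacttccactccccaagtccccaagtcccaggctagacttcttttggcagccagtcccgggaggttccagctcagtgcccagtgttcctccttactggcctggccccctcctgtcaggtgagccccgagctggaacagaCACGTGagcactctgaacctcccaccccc
Avpr2 (chrX:73891852-73892101, plus strand): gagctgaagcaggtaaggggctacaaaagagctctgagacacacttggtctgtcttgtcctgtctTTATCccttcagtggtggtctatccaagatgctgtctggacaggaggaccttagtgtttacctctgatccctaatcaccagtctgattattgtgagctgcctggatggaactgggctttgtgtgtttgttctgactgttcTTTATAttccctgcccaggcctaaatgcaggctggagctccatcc
In the table of 32817 promoter windows, 7 of the 8 genes had an entry. 8 motifs were searched on both strands as plain letters, namely the cAMP response element TGACGTCA (in 1.55% of all windows), its half-site TGACG, which every full element contains (17.7%), the site of GATA factors, GATAA (22.6%), the tonicity element core TGGAAA (18.6%), the E-box CACGTG (6.02%), the AP-1 site TGANTCA (6.75%), the promoter box TATAAA (12.4%) and the Sp1 box GGGCGG (32.7%). The Aqp2 window held the half-site 211 to 207 bases before the start site, read as CGTCA on the printed strand. It also held a GATA-factor site 202 to 198 bases before the start, read as TTATC, and an E-box at 58 to 53 bases. The Aqp6 window held an E-box at 29 to 24 bases, and the Aqp3 window held a TATAAA box at 29 to 24 bases and an Sp1 box at 73 to 68 bases. The Avpr2 window held a GATA-factor site at 185 to 181 bases and the letters of TATAAA on the opposite strand at 45 to 40 bases. Each of these matches is a description of letters, not a binding site.

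The last of the 8, Aqp4, lies at chr18:15389496-15410982 on the minus strand. Per kilobase of annotated exon, Aqp1 was the highest of the 8 transcripts in every group. In sham kidneys Aqp1 was at 169 ± 3.88 CPM per kilobase, followed by Aqp2 at 58.9 ± 12.2, Aqp3 at 41.6 ± 6.46, Aqp6 at 18.4 ± 2.58, Aqp4 at 18.2 ± 5.96, Aqp7 at 8.92 ± 1.80, Avpr2 at 4.60 ± 1.06 and Aqp11 at 1.79 ± 0.27 (SD, n = 3). The levels per kilobase of Aqp2 and Aqp3 overlapped between libraries, as did those of Aqp6 and Aqp4, while the other neighbours in the order did not. In UUO kidneys the order per kilobase was Aqp1 (27.0 ± 6.51), Aqp3 (9.54 ± 2.33), Aqp6 (8.59 ± 0.89), Aqp2 (6.17 ± 1.57), Aqp7 (2.09 ± 0.33), Aqp4 (1.64 ± 1.13), Avpr2 (1.44 ± 0.41) and Aqp11 (0.23 ± 0.06) CPM per kilobase (SD, n = 6). There Aqp3 overlapped Aqp6, Aqp6 overlapped Aqp2, and Aqp7, Aqp4 and Avpr2 overlapped each other. By its mean Aqp2 thus stood above Aqp3 and Aqp6 in sham kidneys and below both in UUO kidneys. In UUO_Si kidneys Aqp1 (32.3 ± 10.2), Aqp2 (11.9 ± 6.76), Aqp6 (11.1 ± 2.55) and Aqp3 (10.6 ± 2.39 CPM per kilobase; SD, n = 6) each overlapped the next in the order. Aqp7 (2.30 ± 0.36), Aqp4 (2.12 ± 0.56) and Avpr2 (1.97 ± 0.57) followed with overlap, and Aqp11 (0.24 ± 0.09 CPM per kilobase) was again the lowest. The exon length of Aqp11 was taken from all annotated transcripts (9418 bases), which lowers its value per kilobase.

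All 8 transcripts were lower in UUO than in sham kidneys. Each of the 8 was called lower by edgeR's quasi-likelihood test at an adjusted p under 0.05, against 26.4% of the 16752 genes tested that were called lower and 53.9% called in either direction. In 8 of 8 the UUO libraries all lay below the sham libraries, as they did for 22.3% of genes. Their log2 fold changes ran between -3.47 and -1.10 with a median of -2.38, where the median of all genes tested was -0.04. 6 of the 8, other than Aqp6 and Avpr2, had a log2 fold change at or below -2, which 4.94% of genes had. In bulk tissue, fewer cells of a type and less RNA per cell cannot be told apart.

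**Figure D1:**
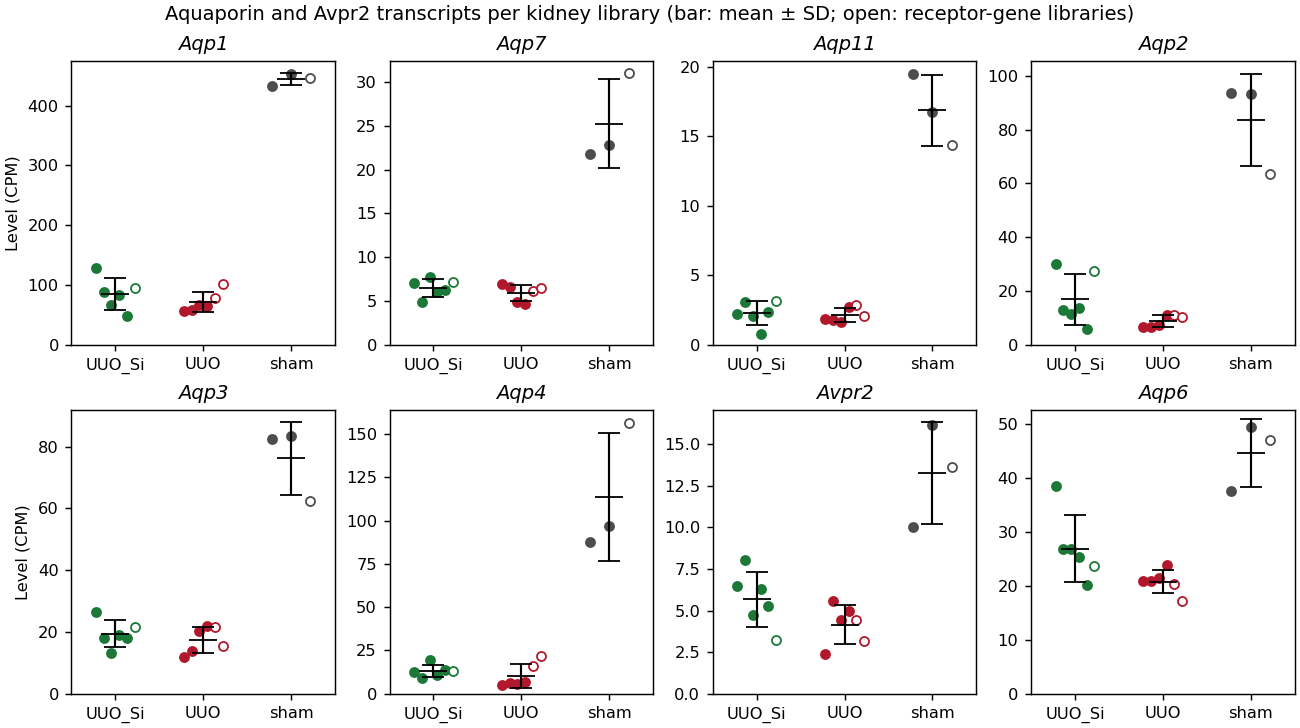
Level of each transcript in every library, in CPM on a linear axis of its own, with the mean and SD of UUO_Si, UUO and sham as a bar and whiskers; open circles are the receptor-gene libraries. The 6 UUO libraries of Aqp2 lay between 6.47 and 11.03 CPM and the 3 sham libraries between 63.7 and 93.9 CPM, while Aqp6 was at 17.2 to 23.9 CPM in UUO and 37.5 to 49.4 CPM in sham.

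Aqp2, the vasopressin-regulated water channel, had 6.47, 8.81 and 11.03 CPM (lowest, median and highest of 6) in UUO kidneys, against 93.9, 93.2 and 63.7 CPM in sham kidneys. The UUO mean was 10.5% of the sham mean. Its log2 fold change was -3.25 ± 0.35 (SE), or 9.51-fold lower (edgeR quasi-likelihood test, adjusted p = 5.18e-07). The UUO libraries were close together and far below the lowest sham library.

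Aqp3, the exit channel for water and glycerol, had 11.9, 17.8 and 21.8 CPM (lowest, median, highest) in UUO kidneys, against 82.5, 83.4 and 62.5 CPM in sham kidneys, a log2 fold change of -2.12 ± 0.20 (4.36-fold lower; edgeR quasi-likelihood test, adjusted p = 1.02e-07). The groups were well apart, at 22.9% of the sham mean. Aqp4, the other exit channel, had 4.98, 6.44 and 21.7 CPM in UUO kidneys, against 87.7, 96.9 and 156 CPM in sham kidneys. Its log2 fold change of -3.47 ± 0.38 was the furthest below 0 of the 8 (11.1-fold lower; edgeR quasi-likelihood test, adjusted p = 6.22e-07). UUO replicates 5 and 6, both receptor-gene libraries, had 16.3 and 21.7 CPM of Aqp4 where the other 4 UUO libraries had 4.98 to 6.65 CPM, and the receptor-gene library of sham was also the highest sham library. Without the receptor-gene libraries the log2 fold change of Aqp4 was -3.96.

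Avpr2, the receptor, had 2.41, 4.42 and 5.54 CPM (lowest, median, highest) in UUO kidneys, against 10.03, 16.1 and 13.6 CPM in sham kidneys. The log2 fold change was -1.67 ± 0.27 (3.17-fold lower; edgeR quasi-likelihood test, adjusted p = 5.57e-05), so the receptor kept 31.3% of its sham level where Aqp2 kept 10.5%. The exons of Avpr2 share 2347 of their 2886 bases with Arhgap4 on the opposite strand, the sources used here do not give the strand setting of the counting, and the reads of both genes cannot be told apart with certainty. Arhgap4 was at 19.99 ± 6.31 CPM in UUO and 13.4 ± 2.35 CPM in sham kidneys (log2 fold change 0.57 ± 0.27; edgeR quasi-likelihood test, adjusted p = 0.0869), which did not pass the test and had the opposite sign to Avpr2.

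Aqp6, of acid-secreting intercalated cells, had the log2 fold change nearest 0 of the 8. It had 17.2, 20.96 and 23.9 CPM (lowest, median, highest) in UUO kidneys, against 37.5, 49.4 and 47.0 CPM in sham kidneys. The log2 fold change was -1.10 ± 0.16 (2.14-fold lower; edgeR quasi-likelihood test, adjusted p = 1.57e-05), and UUO kidneys kept 46.6% of the sham mean.

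Aqp1, the constitutive channel of the proximal tubule, had 56.6, 65.2 and 102 CPM (lowest, median, highest) in UUO kidneys, against 433, 453 and 447 CPM in sham kidneys. It fell to 15.98% of the sham mean (log2 fold change -2.65 ± 0.22, 6.26-fold lower; edgeR quasi-likelihood test, adjusted p = 2.7e-08), and its sham libraries had the smallest coefficient of variation of the 8 (2.29%). Aqp7, the glycerol channel, had 4.62, 6.27 and 6.91 CPM in UUO kidneys, against 21.8, 22.9 and 31.1 CPM in sham kidneys (log2 fold change -2.09 ± 0.17, 4.25-fold lower; edgeR quasi-likelihood test, adjusted p = 2.46e-08). The deposited value of Aqp7 had a fraction in 15 of 15 libraries, so part of its reads may also have fitted other genes and its level is uncertain to that extent (Avpr2 had such values in 6 libraries, Aqp3 in 3 and the other 5 genes in 0). Aqp11, the channel of the endoplasmic reticulum, had 1.61, 1.96 and 2.85 CPM in UUO kidneys, against 19.5, 16.8 and 14.4 CPM in sham kidneys (log2 fold change -2.96 ± 0.29, 7.79-fold lower; edgeR quasi-likelihood test, adjusted p = 1.85e-07). With 19 to 45 counts per UUO library Aqp11 had the fewest counts of the 8 there.

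**Figure D2:**
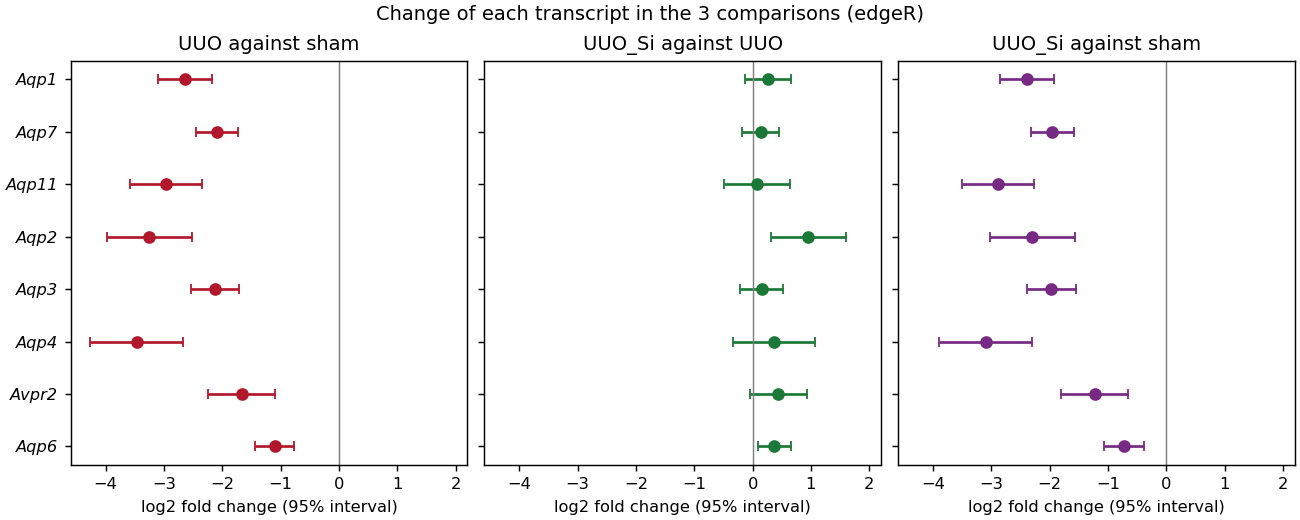
Log2 fold change of each transcript with its 95% interval (horizontal axis, edgeR) for UUO against sham, UUO_Si against UUO and UUO_Si against sham; the vertical line marks no change. Against sham every interval lies below 0, from -3.47 for Aqp4 to -1.10 for Aqp6 in UUO, while for UUO_Si against UUO the intervals of Aqp2 and Aqp6 lie above 0 and the other 6 include it.

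Whether genes of a segment, or of different segments, moved unequally was tested with ratios of 2 transcripts in the same library, in which the library total cancels. 8 ratios were tested in 2 comparisons, 16 tests in all, with an exact two-sided permutation test on log2(CPM + 0.5). The smallest p that 6 libraries against 3 can give is 0.0119. None of the 16 passed 0.05 after Benjamini-Hochberg adjustment over the 16. With a pseudocount of 2 CPM in place of 0.5, Aqp2 to Aqp3, Aqp2 to Avpr2, Aqp6 to Aqp2 and Aqp7 to Aqp1 passed for UUO against sham, each with an adjusted p of 0.0476. The first 3 of these already had an exact permutation p of 0.0119 with 0.5, the smallest possible. Their adjusted p could therefore fall only through the p of other ratios.

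Aqp2 was low relative to Aqp3 in every UUO library. The ratio of Aqp2 to Aqp3 was 0.547, 0.464, 0.361, 0.499, 0.513 and 0.672 in UUO replicates 1 to 6, against 1.14, 1.12 and 1.02 in sham kidneys. The groups did not overlap and the ratio was 2.11-fold lower in UUO (log2 difference -1.08, exact permutation p = 0.0119, adjusted p = 0.0635). The same held for Aqp2 relative to its receptor. The ratio of Aqp2 to Avpr2 was 2.70, 1.17, 1.65, 2.18, 2.49 and 3.29 in UUO, against 9.36, 5.77 and 4.67 in sham (log2 difference -1.62, exact permutation p = 0.0119, adjusted p = 0.0635). Between cell types of the collecting duct, the ratio of Aqp6 to Aqp2 was 3.22, 3.24, 2.95, 2.2, 1.84 and 1.66 in UUO, against 0.400, 0.530 and 0.738 in sham, so that counts of Aqp6 outnumbered those of Aqp2 in every UUO library and in no sham library. That ratio was 4.34-fold higher in UUO (log2 difference 2.12, exact permutation p = 0.0119, adjusted p = 0.0635).

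Other pairs were less clearly apart. Aqp2 to Aqp1, which sets the collecting duct against the proximal tubule, differed by -0.53 on the log2 scale between UUO and sham with overlapping groups (exact permutation p = 0.0476, adjusted p = 0.136). Aqp3 to Aqp4 differed by 1.47 and Aqp7 to Aqp1 by 0.67, both with overlap (exact permutation p = 0.0595 and adjusted p = 0.136 for each). For Aqp2 to Aqp4 the log2 difference was 0.39 (exact permutation p = 0.452) and for Aqp11 to Aqp1 it was -0.06 (exact permutation p = 0.81), and neither could be told from 0.

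**Figure D3:**
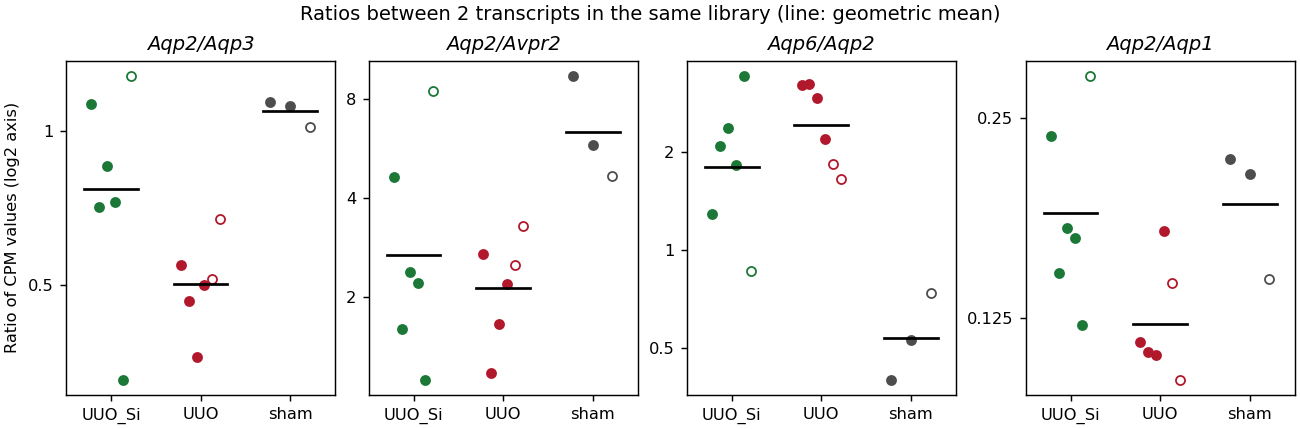
Ratio of the CPM values of 2 transcripts in the same library on a log2 axis, for UUO_Si, UUO and sham; each point is a library, the line is the geometric mean, and open circles are the receptor-gene libraries. In UUO the ratios Aqp2 to Aqp3 and Aqp2 to Avpr2 lie below all sham libraries and Aqp6 to Aqp2 above them. UUO_Si libraries spread over both ranges for Aqp2 to Aqp3 (0.326 to 1.28) and Aqp2 to Avpr2 (1.12 to 8.46). For Aqp6 to Aqp2 the UUO_Si libraries lie at 0.864 to 3.43, above all sham libraries.

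Each transcript was then set against the summed CPM of markers of its segment, as a description without a test. Against 10 principal cell markers, Aqp2 amounted to 0.951 ± 0.262% of the marker sum in UUO and 5.16 ± 0.699% in sham kidneys, Aqp3 to 1.88 ± 0.409% in UUO and 4.72 ± 0.400% in sham, and Aqp4 to 1.15 ± 0.877% in UUO and 7.23 ± 3.03% in sham. For these 3 channels the groups did not overlap, so they were lower in UUO relative to this marker sum as well. Avpr2 was at 0.448 ± 0.121% in UUO and 0.833 ± 0.218% in sham, with overlap. The marker Cdh16 alone was at 507 ± 42.7 CPM of that sum of 813 to 1008 CPM in UUO. In sham it was at 781 ± 102 CPM of 1459 to 1722 CPM, so Cdh16 weighs heavily on these percentages. The list holds markers of the collecting duct as well as of principal cells, so the percentages are not levels per principal cell. Aqp4, which in mice is found in the straight proximal tubule too, was not set against proximal markers. Its log2 fold change was -3.47, where the medians were -4.20 for 13 proximal and -3.13 for 8 straight proximal markers. Against 12 intercalated cell markers, Aqp6 was at 5.36 ± 0.405% in UUO and 4.96 ± 1.0% in sham, with overlap, so it was not set apart from sham on this scale. The 12 were not split into acid-secreting and other intercalated cells. In UUO they kept between 8.74% (Slc4a1) and 176% (Kit) of their sham means, where Aqp6 kept 46.6%.

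The proximal channels stood the other way round against the sum of their markers, though not against every marker in it. Against 13 proximal tubule markers, Aqp1 was at 5.45 ± 0.698% in UUO and 2.66 ± 0.308% in sham kidneys, Aqp7 at 0.471 ± 0.126% in UUO and 0.153 ± 0.0476% in sham, and Aqp11 at 0.168 ± 0.0412% in UUO and 0.1 ± 0.0057% in sham. In all 3 the UUO libraries lay above the sham libraries, and the marker sum itself was 1013 to 1867 CPM in UUO and 14960 to 18260 CPM in sham. Lrp2 alone was at 535 ± 147 CPM in UUO and 7037.5 ± 384 CPM in sham, so Lrp2 weighs heavily on these percentages. In UUO Slc4a4 kept 25.4% of its sham mean and Hnf4a 14.5%. The other markers of the sum kept at most 10.1% (Gatm). Aqp1 kept 15.98%, Aqp7 23.5% and Aqp11 12.7%. By these means all 3 kept less than Slc4a4, and Aqp11 less than Hnf4a, so the order depends on the markers summed. Against 8 markers of the straight (S3) proximal tubule, where Aqp7 is placed, Aqp7 was at 0.803 ± 0.118% in UUO and 0.999 ± 0.304% in sham, with overlap. Atp11a alone was at 601 ± 59.0 CPM of that S3 sum of 686 to 804 CPM in UUO. In sham it was at 1120 ± 113 CPM of 2317 to 2862 CPM, so Atp11a weighs heavily on this percentage. The median log2 fold change of the 8 S3 markers was -3.13, where that of Aqp7 was -2.09. Against 10 endothelial markers Aqp1, which the endothelium of the descending vasa recta also makes, was at 7.23 ± 1.78% in UUO and 40.4 ± 2.77% in sham.

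**Figure D4:**
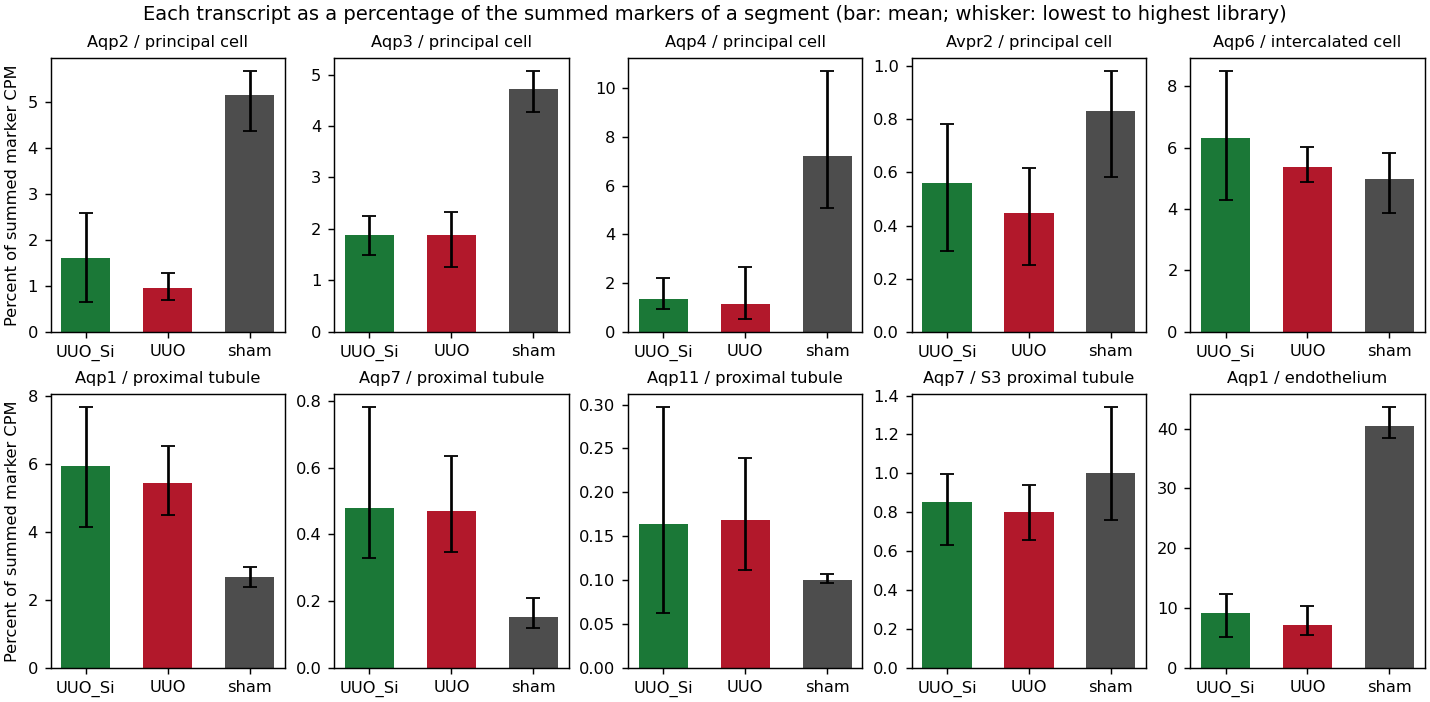
Each transcript as a percentage of the summed CPM of the markers of a segment, as the mean (bar, from 0) with the lowest and highest library (whisker) in UUO_Si, UUO and sham. Aqp2, Aqp3 and Aqp4 are a smaller percentage of principal cell markers in UUO than in sham, Aqp6 is at 5.36% and 4.96% of intercalated cell markers in UUO and sham, and Aqp1, Aqp7 and Aqp11 are a larger percentage of proximal markers in UUO.

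Most markers of those segments were themselves lower in UUO. Of 10 principal cell markers, 7 were called lower, 0 higher and 3 neither, with a median log2 fold change of -0.80 against -0.04 over all genes. They included the sodium channel subunits Scnn1a (85.5 ± 10.8 CPM in UUO, 278 ± 21.9 in sham, log2 fold change -1.70 ± 0.12) and Scnn1b (-0.79 ± 0.15), the potassium channel Kcnj1 (-1.38 ± 0.11) and the cadherin Cdh16 (-0.62 ± 0.11). Aqp2, Aqp3 and Aqp4 therefore had log2 fold changes further below 0 than each of those 4. Of 12 intercalated cell markers, 8 were called lower, 1 higher and 3 neither, with a median of -1.50. Among those called lower were the exchangers Slc26a4 (-2.40 ± 0.14) and Slc4a1 (-3.51 ± 0.30), the proton pump subunit Atp6v1c2 (-2.38 ± 0.15) and the ammonia channel Rhcg (-1.98 ± 0.17). Of the 12, 3 had a log2 fold change above 0. They included Kit (65.4 ± 10.7 CPM in UUO, 37.2 ± 5.51 in sham) and Foxi1 (32.0 ± 9.18 CPM in UUO, 28.8 ± 3.13 in sham). Of 13 proximal markers 13 were called lower with a median of -4.20, and of 8 S3 markers 6 were called lower and 1 higher with a median of -3.13. For comparison, 27.5% of all genes were called higher.

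Markers of other cells that hold aquaporins moved as follows. In the thin descending limb and descending vasa recta, which Aqp1 also lines, 3 of 8 markers were called higher and 3 lower, and their summed level was 122 to 175 CPM in UUO and 223 to 264 CPM in sham. Of 10 endothelial markers, 3 were called higher and 5 lower, with sums of 822 to 1179 CPM in UUO and 1024 to 1177 CPM in sham. Red cells carry Aqp1, and 0 of the 7 red cell genes tested (of 8) were called, with sums of 88.3 to 299 CPM in UUO and 160 to 210 CPM in sham. Fat cells carry Aqp7, and 0 of 8 fat cell markers were called, with sums of 47.1 to 312 CPM in UUO and 59.0 to 62.5 CPM in sham and the fat hormone gene Adipoq at 0 to 18.7 CPM in UUO and 0 to 0.799 CPM in sham. Urothelium carries Aqp3, and 8 of 8 urothelial markers were called higher, with sums of 88.2 to 271 CPM in UUO and 9.31 to 24.1 CPM in sham, while Aqp3 was lower. Macrophage markers were called higher in 8 of 8, at 868 to 1149 CPM in UUO and 114 to 180 CPM in sham. The part of these cells in the levels of the 8 transcripts was not tested.

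Of 30 other genes of vasopressin signalling, a list that also holds receptors of other hormones and prostaglandins, 9 were called higher, 9 lower and 12 neither in UUO against sham, with a median log2 fold change of -0.06. These counts are near the shares over all genes, 27.5% called higher and 26.4% called lower. The cAMP-degrading phosphodiesterase Pde4d was at 41.9 ± 3.95 CPM in UUO and 148 ± 17.0 CPM in sham (log2 fold change -1.82 ± 0.11; edgeR quasi-likelihood test, adjusted p = 7.35e-10), and Myo5b, the motor that carries recycling vesicles, was also called lower (-1.04 ± 0.09). Pde3a, a phosphodiesterase of another family, was at 111 ± 12.1 CPM in UUO and 51.5 ± 5.75 CPM in sham (1.10 ± 0.11), and Ptger4, a prostaglandin receptor that raises cAMP, at 33.0 ± 2.70 CPM in UUO and 9.90 ± 1.90 CPM in sham (1.74 ± 0.14). Both were called higher.

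Of 9 genes of the tonicity response, which adapts medullary cells to salt, 2 were called higher, 2 lower and 5 neither. The inositol transporter Slc5a3 was at 303 ± 59.1 CPM in UUO and 1189 ± 76.9 CPM in sham (log2 fold change -1.97 ± 0.21) and the kinase Sgk1 at 41.8 ± 7.57 CPM in UUO and 156 ± 18.0 CPM in sham (-1.90 ± 0.14), while the sorbitol-making enzyme Akr1b3 was at 41.7 ± 7.86 CPM in UUO and 13.5 ± 1.99 CPM in sham (1.63 ± 0.16). Of 14 transcription factors of the collecting duct or the Aqp2 gene, 3 were called higher, 2 lower and 9 neither. Elf3 was at 113 ± 7.52 CPM in UUO and 29.5 ± 3.298 CPM in sham (1.93 ± 0.10), Nfatc1 had a log2 fold change of 0.85 ± 0.14, Emx1 of -2.05 ± 0.21 and the mineralocorticoid receptor Nr3c2 of -0.89 ± 0.18. Elf5, Gata3, Slc14a1 and Slc14a2 stand in more than a single list. Of 5 further aquaporin-family genes, Aqp5 and Aqp9 were tested and not called, at means of 0.478 and 1.14 CPM in UUO and 0.791 and 0.877 CPM in sham, and Mip, Aqp8 and Aqp12 had too few counts to be tested.

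Between the diets none of the 8 transcripts passed. In UUO_Si against UUO, 0 of 8 were called, and so were 0.0% of the 16752 genes, each of the 8 with an adjusted p of 0.999 (edgeR quasi-likelihood test). At an unadjusted p under 0.05 (edgeR quasi-likelihood test) there were 626 of the 16752 genes, among them Aqp2 and Aqp6. That is fewer than this threshold would give by chance over so many genes. DESeq2 called 2 genes at its adjusted threshold, neither of them among the 8. The log2 fold change was above 0 in 8 of 8, as it was in 50.3% of genes, with a median of 0.31 where that of all genes was 0.00. The 8 are not independent of each other, since the same libraries enter each. In 0 of 8 were the groups apart, as they were in either direction for 0.203% of genes.

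Aqp2 had the largest log2 fold change of the 8 between the diets when all libraries were used, while without the receptor-gene libraries that of Aqp4 was larger (1.16, against 0.92 for Aqp2). It had 5.90, 13.3 and 29.9 CPM (lowest, median, highest) in UUO_Si kidneys and 6.47, 8.81 and 11.03 CPM in UUO kidneys. 5 of the 6 UUO_Si libraries lay above the highest UUO library, and UUO_Si replicate 5 lay below the lowest. The log2 fold change was 0.95 ± 0.31 with a 95% interval of 0.31 to 1.60 (edgeR quasi-likelihood test, unadjusted p = 0.0064), and 99.9% of genes had a lower one. Without UUO_Si replicate 5 it was 1.12 and without UUO_Si replicate 1 it was 0.72, and over all alternatives the adjusted p ran between 0.454 and 1.0.

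Aqp6 had 20.2, 26.1 and 38.5 CPM (lowest, median, highest) in UUO_Si kidneys and 17.2, 20.96 and 23.9 CPM in UUO kidneys. 4 of 6 UUO_Si libraries lay above the highest UUO library, and the log2 fold change was 0.37 ± 0.13 with a 95% interval of 0.09 to 0.65 (edgeR quasi-likelihood test, unadjusted p = 0.0125). Without UUO_Si replicate 1, the highest library, it was 0.24, and without UUO_Si replicate 5, the lowest, it was 0.44. Avpr2 had 3.25, 5.78 and 8.01 CPM in UUO_Si and 2.41, 4.42 and 5.54 CPM in UUO kidneys, with a log2 fold change of 0.44 ± 0.23 and a 95% interval of -0.05 to 0.93. 3 of 6 UUO_Si libraries lay above the highest UUO library for Avpr2, as 3 of 6 did for Aqp7, whose log2 fold change was 0.14.

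For the remaining 5 transcripts the intervals included 0. Aqp1 had 48.4, 86.1 and 128 CPM (lowest, median, highest) in UUO_Si and 56.6, 65.2 and 102 CPM in UUO kidneys, with a 95% interval of the log2 fold change of -0.14 to 0.66. The interval of Aqp3 was -0.21 to 0.52, that of Aqp7 -0.18 to 0.46 and that of Aqp11 -0.49 to 0.64, and their means were 19.4 ± 4.38, 6.50 ± 1.03 and 2.27 ± 0.883 CPM in UUO_Si and 17.5 ± 4.25, 5.92 ± 0.937 and 2.15 ± 0.521 CPM in UUO kidneys. The log2 fold change of Aqp1 was 0.26 ± 0.19, and it was 0.11 without UUO_Si replicate 1, 0.39 without UUO replicate 6 and 0.44 without the 4 receptor-gene libraries (edgeR quasi-likelihood test, unadjusted p = 0.0713), with adjusted p between 0.584 and 1.0 over all alternatives. That of Aqp3 was 0.15, and 0.04 to 0.24 when each library was left out. That of Aqp11 was 0.08, and 0.05 without the receptor-gene libraries. In UUO_Si replicate 4 Aqp11 rested on 7 counts.

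Aqp4 depended on which libraries were compared. It had 9.35, 13.03 and 19.5 CPM (lowest, median, highest) in UUO_Si and 4.98, 6.44 and 21.7 CPM in UUO kidneys, with a log2 fold change of 0.37 ± 0.34 and a 95% interval of -0.34 to 1.08. Without the 4 receptor-gene libraries Aqp4 averaged 13.2 ± 3.87 CPM in UUO_Si (n = 5) and 5.86 ± 0.732 CPM in UUO kidneys (n = 4). These did not overlap, as was so in the same direction for 0.663% of genes, and the log2 fold change was 1.16 ± 0.18 (edgeR quasi-likelihood test, unadjusted p = 8.6e-06, adjusted p = 0.14). Over all alternatives the adjusted p of Aqp4 ran between 0.14 and 1.0, so it passed in none. The obstructed libraries among these 4 are the 3 with codes of another series. As each of these code series holds libraries of a single group, code series and diet cannot be told apart.

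The libraries that were high in a transcript differed between transcripts. Among the UUO_Si libraries, replicate 1 was the highest in Aqp1, Aqp2, Aqp3 and Aqp6, and replicate 5 the lowest in Aqp1, Aqp2 and Aqp6. Among the UUO libraries, replicate 1 was the lowest in Aqp1, Aqp3, Aqp4 and Avpr2. The sum of proximal markers was lowest in UUO_Si replicate 5 (803 CPM) and highest in UUO_Si replicate 6 (2181 CPM), and in UUO it was 1013 to 1150 CPM in replicates 1 to 4 and 1746 and 1867 CPM in replicates 5 and 6. In those 2 libraries Aqp1 and Aqp4 were also the highest of UUO. The sum of principal cell markers was highest in UUO_Si replicates 1 and 6 (1172 and 1066 CPM), the libraries with 29.9 and 27.5 CPM of Aqp2. Fat cell markers summed to 350 CPM in UUO_Si replicate 6 and 312 CPM in UUO replicate 6 and to 47.1 to 99.9 CPM in the other 10 obstructed libraries, and Aqp7 in those 2, at 7.16 and 6.45 CPM, lay within the range of the other 10. The part of segment markers in the differences between the diets was not tested.

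**Figure D5:**
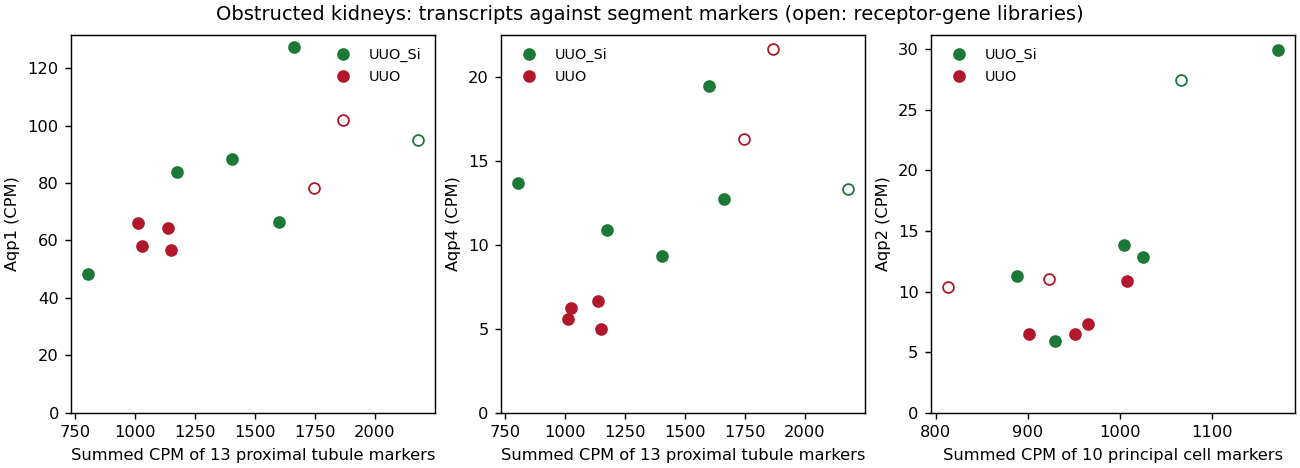
The 12 obstructed libraries, with the level of Aqp1, Aqp4 or Aqp2 (vertical, CPM) against the summed CPM of 13 proximal tubule markers or of 10 principal cell markers (horizontal); open circles are the receptor-gene libraries. The 2 libraries with most Aqp2, at 29.9 and 27.5 CPM, are the UUO_Si libraries with the highest principal cell sums, and 4 UUO libraries with 4.98 to 6.65 CPM of Aqp4 lie together at proximal sums of 1013 to 1150 CPM.

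Set against the markers of their segments, the 8 transcripts overlapped between the diets. Aqp2 was at 1.61 ± 0.784% of the principal cell marker sum in UUO_Si and 0.951 ± 0.262% in UUO kidneys, and Aqp6 at 6.32 ± 1.37% of the intercalated cell marker sum in UUO_Si and 5.36 ± 0.405% in UUO. Aqp1 was at 5.93 ± 1.43% of the proximal marker sum in UUO_Si and 5.45 ± 0.698% in UUO. Of the ratios, Aqp2 to Aqp1 was higher in UUO_Si by 0.53 on the log2 scale (exact permutation p = 0.026, adjusted p = 0.104) and Aqp2 to Aqp3 by 0.60 (exact permutation p = 0.0779, adjusted p = 0.156), where the smallest p that 6 against 6 libraries can give is 0.00216. Neither passed. Without UUO_Si replicate 5 both passed, with log2 differences of 0.63 and 0.83 and an adjusted p of 0.0416 each (exact permutation), and over its alternatives the adjusted p ran between 0.0416 and 0.4 for each. The other 6 ratios had exact permutation p values of 0.238 or more.

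No gene of the lists was called between the diets either. Of the 10 principal cell markers, 9 had a log2 fold change above 0 with a median of 0.22, and the 30 genes of vasopressin signalling had 15 above 0 with a median of 0.01. Of the 7 red cell genes tested 1 was above 0 (median -1.13), with sums of 70.8 to 144 CPM in UUO_Si and 88.3 to 299 CPM in UUO. Of the 8 urothelial markers 1 was above 0 (median -0.72), with sums of 89.0 to 187 CPM in UUO_Si and 88.2 to 271 CPM in UUO. The part of these cells in the levels of Aqp1 and Aqp3 between the diets was not tested. Kcnj1, the potassium channel, had 99.5 ± 13.3 CPM in UUO_Si kidneys and 75.3 ± 6.24 CPM in UUO kidneys (log2 fold change 0.40 ± 0.09), and Sgk1 had 58.5 ± 7.06 CPM in UUO_Si kidneys and 41.8 ± 7.57 CPM in UUO kidneys (0.49 ± 0.12), both with an adjusted p of 0.999 (edgeR quasi-likelihood test). Slc5a3 had a log2 fold change of 0.58 ± 0.18 and Tfcp2l1, a transcription factor of the collecting duct, of 0.28 ± 0.09. The 2 genes of vasopressin signalling with the smallest p had values below 0, the phosphodiesterase Pde3a at 91.9 ± 5.62 CPM in UUO_Si kidneys, against 111 ± 12.1 CPM in UUO kidneys (-0.27 ± 0.08) and the cAMP-making enzyme Adcy3 at 19.1 ± 2.05 CPM in UUO_Si kidneys, against 24.0 ± 3.18 CPM in UUO kidneys (-0.33 ± 0.11). All 4 also had an adjusted p of 0.999 (edgeR quasi-likelihood test).

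UUO_Si kidneys stayed below sham in all 8. Each was called lower (25.5% of genes were), and in 7 of 8 the groups did not overlap, as they did not for 21.8% of genes. This comparison shares its libraries with the other comparisons and is given for its own values. The log2 fold changes of UUO_Si against sham were -2.38 ± 0.22 for Aqp1, -2.30 ± 0.34 for Aqp2, -1.97 ± 0.20 for Aqp3, -3.10 ± 0.38 for Aqp4, -1.95 ± 0.17 for Aqp7, -2.89 ± 0.29 for Aqp11 and -1.22 ± 0.27 for Avpr2, with adjusted p of at most 0.00111 (edgeR quasi-likelihood test). For Aqp6 it was -0.73 ± 0.16 (adjusted p = 0.00101), and UUO_Si replicate 1, at 38.5 CPM, lay above the lowest sham library, at 37.5 CPM. In percent of the sham mean, UUO_Si kidneys held 60.3% of Aqp6, 42.7% of Avpr2, 25.8% of Aqp7, 25.5% of Aqp3, 20.2% of Aqp2, 19.1% of Aqp1, 13.4% of Aqp11 and 11.7% of Aqp4.

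For each transcript the 3 genes whose level relative to the sham mean lay closest over the 12 obstructed libraries were found among 12907 genes with a mean of at least 5 CPM, by the root mean square (RMS) difference on the log2 scale. Closest to Aqp2 were Ppp1r1a, an inhibitor of a protein phosphatase (RMS 0.41), Kl, the klotho gene of the distal nephron (0.44), and Abca13 (0.46), and of the other 7 genes Aqp1 came nearest to it, at place 13 (0.53). Closest to Aqp1 were the amino acid transporter subunit Slc3a1 (0.19), the growth hormone receptor Ghr (0.20) and Mettl7a2 (0.24). Aqp3 had the vitamin transporter Slc5a6 and Tnfaip8 (0.30 each), and Aqp4 had Mettl7b, Ugt1a5 and the bile acid transporter Slc10a2 (0.44 each). Aqp6 had Aph1c (0.17), the choline dehydrogenase Chdh (0.20) and Tmem117 (0.20), and Aqp7 had Sfxn2 (0.19), Emx1 (0.20) and Selenbp2 (0.21). Aqp11 had Pgam2 (0.35), Klk1b5 (0.43) and Kmo, an enzyme of tryptophan breakdown (0.44), and Avpr2 had B230206H07Rik (0.33), Tmem72 (0.36) and Tns1 (0.36). None of the 8 was among the 3 genes closest to another of them.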

How the data were processed

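RNA of whole kidney was read in 15 libraries. Per the labels, RNA from RNAlater-stored kidney was extracted with an RNeasy kit, and libraries were prepared with the SMARTer Stranded Pico kit. The authors deposited a table of estimated, unnormalised counts (expected counts). The submitters' processing notes name the build mm10 and the tools TopHat2 2.1.1 and Cuffdiff 2.2.1 without their roles. Of the deposited values of a library, 79.0% to 83.0% were whole, and the rest were rounded. Genome positions and exon lengths came from GENCODE M21 (GRCm38), which matched 23384 symbols (95.8%) by name.

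The function filterByExpr of edgeR 4.0.16 (R 4.3.3), at a minimum of 10 counts, left 16752 genes, and totals were scaled with TMM. A model with a mean for each of the 3 groups was fitted to the 15 libraries by robust quasi-likelihood, and p values were adjusted with the Benjamini-Hochberg method over the 16752 genes. CPM are counts per 1000000 counts of the scaled library total. Ratios were tested by exact permutation over libraries on log2(CPM + 0.5). Intervals cover the spread between libraries and, for low counts such as those of Aqp11, counting error.

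Genes named were the 8, the 4 genes of each list with the smallest p for UUO against sham, the 2 with the smallest p between the diets, and the 3 nearest genes for each of the 8; some of these are not reported here. The 8 genes and the lists were chosen with earlier results of these data known. Alternatives were other scalings (RLE, upper quartile), other filters, DESeq2 1.42.0, limma 3.58.1 with voom weights, removal of ribosomal RNA and haemoglobin genes, only the 2 groups compared, a block, and libraries left out. The steps were tested on simulated data, in which all groups had the UUO means and 100 genes were changed by each fold. The rates need not hold for UUO against sham, where 53.9% of genes were called. For UUO against sham (16283 genes) 72% of 2-fold and 19% of 1.5-fold changes were recovered with 9.0% false calls, and for UUO_Si against UUO (16292 genes) 73% and 40% with 3.42%. No pair of libraries held identical values.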

Additional observations from a re-analysis of the deposited data

Results flagged for a closer look

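Aqp6 in UUO_Si replicate 1 was at 38.5 CPM, far from the other 5 libraries of its group. The next highest was at 26.9 CPM and the lowest at 20.2 CPM, so the gap took up 0.634 of the group's range. The 2 obstructed groups were examined for each of the 8 transcripts, 16 in all, and chance flags about 1 in 20 such groups. The same library was the highest of its group in Aqp1, Aqp2 and Aqp3, and it is not a receptor-gene library. Without it the log2 fold change of Aqp6 in UUO_Si against UUO was 0.24, against 0.37 with it.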

How the results depend on the processing

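In UUO against sham and in UUO_Si against sham all 8 transcripts stayed lower and past the threshold under each of 20 alternatives. The genes called numbered 7719 to 9928 for UUO against sham (9036 as reported) and 7693 to 9866 for UUO_Si against sham (8834). In UUO_Si against UUO 0 of the 8 were called under any of 23 alternatives, and DESeq2 called 2 of all genes where edgeR called 0. Of 184 log2 fold changes between the diets 2 changed sign, those of Aqp11 without UUO_Si replicate 2 or 6 (-0.0544 to 0.2572 when each library was left out). Among ratios for UUO against sham, Aqp11 to Aqp1 changed sign with a pseudocount of 2 (0.4529), without sham replicate 1 and without UUO replicate 6 (-0.1717 to 0.06288 over libraries left out), and Aqp2 to Aqp4 without sham replicate 3 (-0.04519 to 0.6473). Between the diets Aqp2 to Aqp4 changed sign without the receptor-gene libraries (-0.3442), Aqp7 to Aqp1 without UUO replicate 1 or UUO_Si replicate 1 (-0.2438 to 0.002598), and Aqp11 to Aqp1 without UUO_Si replicate 4 (-0.3978 to 0.005522). The cause was not tested. Correlations of the deviations of same-numbered libraries from their group means ran between -0.39 and 0.754, so replicate numbers did not pair the libraries throughout. The highest was that of replicate 6 of UUO_Si and UUO, both receptor-gene libraries. With the replicate number as a block, 8433 genes were called for UUO against sham, 8268 for UUO_Si against sham and 0 for UUO_Si against UUO, and the log2 fold change of Aqp2 between the diets was 0.84. With 3 sham libraries and few counts of Aqp11, small differences were not detectable.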
